A study of Mus musculus with 15 samples.

Results

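Pim1, Pim2, Pim3, Bcl2, Bcl2l1, Mcl1, Bcl2a1b, Bcl2a1d, Bcl2l11 and Bmf encode the PIM serine/threonine kinases and members of the BCL2 family that set the survival threshold of a cell. These 10 genes were taken by name, with earlier results of these data known and with no threshold on their values, from a table of 55385 genes, and all 10 were among the 13005 genes that passed the filter on low counts. Their mRNA was measured in bone marrow-derived macrophages (BMDMs) of BALB/c mice, 6 weeks old, that carried floxed Stat5 alleles. Cells of 2 STAT5fl/fl mice (mice 112 and 113) and 3 STAT5cKO mice (mice 114, 115 and 116), in which Csf1r-iCre had been crossed in to delete Stat5, were kept in DMEM, in 20 ng/mL rmGM-CSF (recombinant mouse granulocyte-macrophage colony-stimulating factor) or in 4T1 CM for 2 h. 4T1 CM is medium conditioned by serum-starved 4T1 cells, a mouse mammary carcinoma line. The 5 mice and 3 treatments gave 15 libraries in 6 groups. The Csf1r promoter drives Cre in myeloid cells and in some lymphocytes, and whether deletion preceded the culture was not tested. Whether the STAT5fl/fl mice carried Cre is not stated in the sources used here, so the loss of STAT5 and the presence of Cre cannot be told apart.

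GM-CSF binds a receptor whose beta chain recruits the kinase JAK2, which phosphorylates STAT5, and STAT5 enters the nucleus and activates genes that include Pim1, Bcl2l1 and the feedback inhibitor Cish. PIM kinases are active as soon as they are translated, so their mRNA and protein turnover set their activity, and they phosphorylate BAD, CDKN1A, EIF4EBP1 and other proteins of survival and growth. In the BCL2 family, the pro-survival proteins BCL2, BCL-XL (from Bcl2l1), MCL1 and A1 (from the Bcl2a1 genes) hold BAX and BAK in check at the mitochondrion, and the BH3-only proteins BIM (from Bcl2l11) and BMF oppose them. Myeloid cells deprived of their growth factors die by this pathway, which makes its balance a standard readout of colony-stimulating factor action.

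Stat5a and Stat5b gave the first check of the labels. Stat5a was at 637 to 918 counts in the 6 STAT5fl/fl libraries and at 0 to 3 in the 9 STAT5cKO libraries, and Stat5b at 977 to 1654 and at 0 to 4. Cish was at 2403 to 2730 counts with rmGM-CSF in STAT5fl/fl cells and at 31 to 59 in STAT5cKO cells. Total counts were 16016736 to 22883108 per library. All 8 macrophage markers passed the filter, with a summed level of 24700 to 46600 normalized CPM (counts scaled to library totals and a normalization factor), whereas B cell and fibroblast markers summed to at most 0.228 and 1.53 normalized CPM. Neutrophil markers summed to at most 2.46 normalized CPM and dendritic cell markers to at most 3.86 normalized CPM. Cd3e, Cd3d and Cd8a were at or under 3 counts in every library.

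The promoters of the genes on which the results turn are shown first, because they let a reader see what the similar members share. RefSeq promoters on GRCm38.p6, running from 250 bases before to 50 bases after a transcription start, were at hand for 10 of 10 genes, 16 promoters in all. The pair printed first belongs to the A1 genes Bcl2a1b and Bcl2a1d, which moved together in these data. Capitals mark the longest run of letters, 84 bases, that both share with their neighbour Bcl2a1a.
Bcl2a1b (chr9:89199023-89199322, plus strand): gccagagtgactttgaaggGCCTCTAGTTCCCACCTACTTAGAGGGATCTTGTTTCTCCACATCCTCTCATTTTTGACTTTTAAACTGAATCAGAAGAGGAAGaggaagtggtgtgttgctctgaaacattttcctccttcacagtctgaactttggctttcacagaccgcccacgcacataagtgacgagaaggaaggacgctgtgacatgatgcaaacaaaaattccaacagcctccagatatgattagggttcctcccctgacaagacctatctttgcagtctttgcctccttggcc
Bcl2a1d (chr9:88731801-88732100, minus strand): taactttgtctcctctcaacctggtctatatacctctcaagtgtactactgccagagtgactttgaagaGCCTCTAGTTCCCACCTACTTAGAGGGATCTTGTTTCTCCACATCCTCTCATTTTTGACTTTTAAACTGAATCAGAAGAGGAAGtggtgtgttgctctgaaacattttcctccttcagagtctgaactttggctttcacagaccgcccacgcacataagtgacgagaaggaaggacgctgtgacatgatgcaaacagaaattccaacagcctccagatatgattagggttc

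Compared without gaps at a shift of 44 bases, these promoters were identical at 187 of 256 positions (73%). Those of Bcl2a1b and Bcl2a1a were identical at 254 of 256 (99.2%). The capital run starts at position 20 in Bcl2a1b, 70 in Bcl2a1d and 64 in Bcl2a1a, so a shift of 44 leaves it out of register in the first pair. The 73% therefore understates how alike Bcl2a1b and Bcl2a1d are. Transcripts were close as well. Of the 50-base windows in the Bcl2a1d transcript 79.5% also occurred in another Bcl2a1 transcript, and of those in the Bcl2a1b transcript 57.6%, so fragments can be split between the copies or dropped from both. A further 401 of the 817 exon bases of Bcl2a1b lie in exons of Gm29094 on the same strand, and fragments that fall on both genes are left out by default in the counting tool used. Gm29094 itself had 1 to 13 counts per library, and the level of Bcl2a1b per length of exon may be understated.

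The next promoters are those at the annotated starts of Bcl2l11 and Pim1, genes that went in opposite directions with genotype. Capitals mark GTAAACA, a letter motif of FOXO factors, which the Bcl2l11 sequence holds 227 bases before the start and the Pim1 sequence lacks. Each gene has a second promoter, not printed, where this is reversed. That of Pim1 holds the motif 70 bases before its start, and that of Bcl2l11 lacks it.
Bcl2l11 (chr2:128125788-128126087, plus strand): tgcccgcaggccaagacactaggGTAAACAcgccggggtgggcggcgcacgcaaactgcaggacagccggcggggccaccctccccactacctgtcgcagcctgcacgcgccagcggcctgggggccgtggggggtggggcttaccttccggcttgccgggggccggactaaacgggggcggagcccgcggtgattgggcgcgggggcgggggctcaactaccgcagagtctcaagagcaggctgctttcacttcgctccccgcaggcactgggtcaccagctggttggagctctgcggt
Pim1 (chr17:29490535-29490834, plus strand): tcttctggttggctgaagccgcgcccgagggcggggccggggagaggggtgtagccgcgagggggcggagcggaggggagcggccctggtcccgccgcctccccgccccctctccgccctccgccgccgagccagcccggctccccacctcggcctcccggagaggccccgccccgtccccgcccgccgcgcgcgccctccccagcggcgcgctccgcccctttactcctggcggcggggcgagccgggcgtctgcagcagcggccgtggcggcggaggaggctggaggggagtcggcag

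The 16 promoters were searched on both strands for 3 motifs. TTCNNNGAA, the palindrome bound by STAT proteins, occurred in none of them, against 8.3% of 32851 promoters of this length. GTAAACA occurred in the Bcl2l11 promoter above and in a second, internal promoter of Pim1, 70 bases before its start, against 3.65% of all promoters. The kB motif of NF-kB occurred in none of the 16, against 0.411% of all. STAT5 sites outside these 300 bases were not searched.

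**Figure D1:**
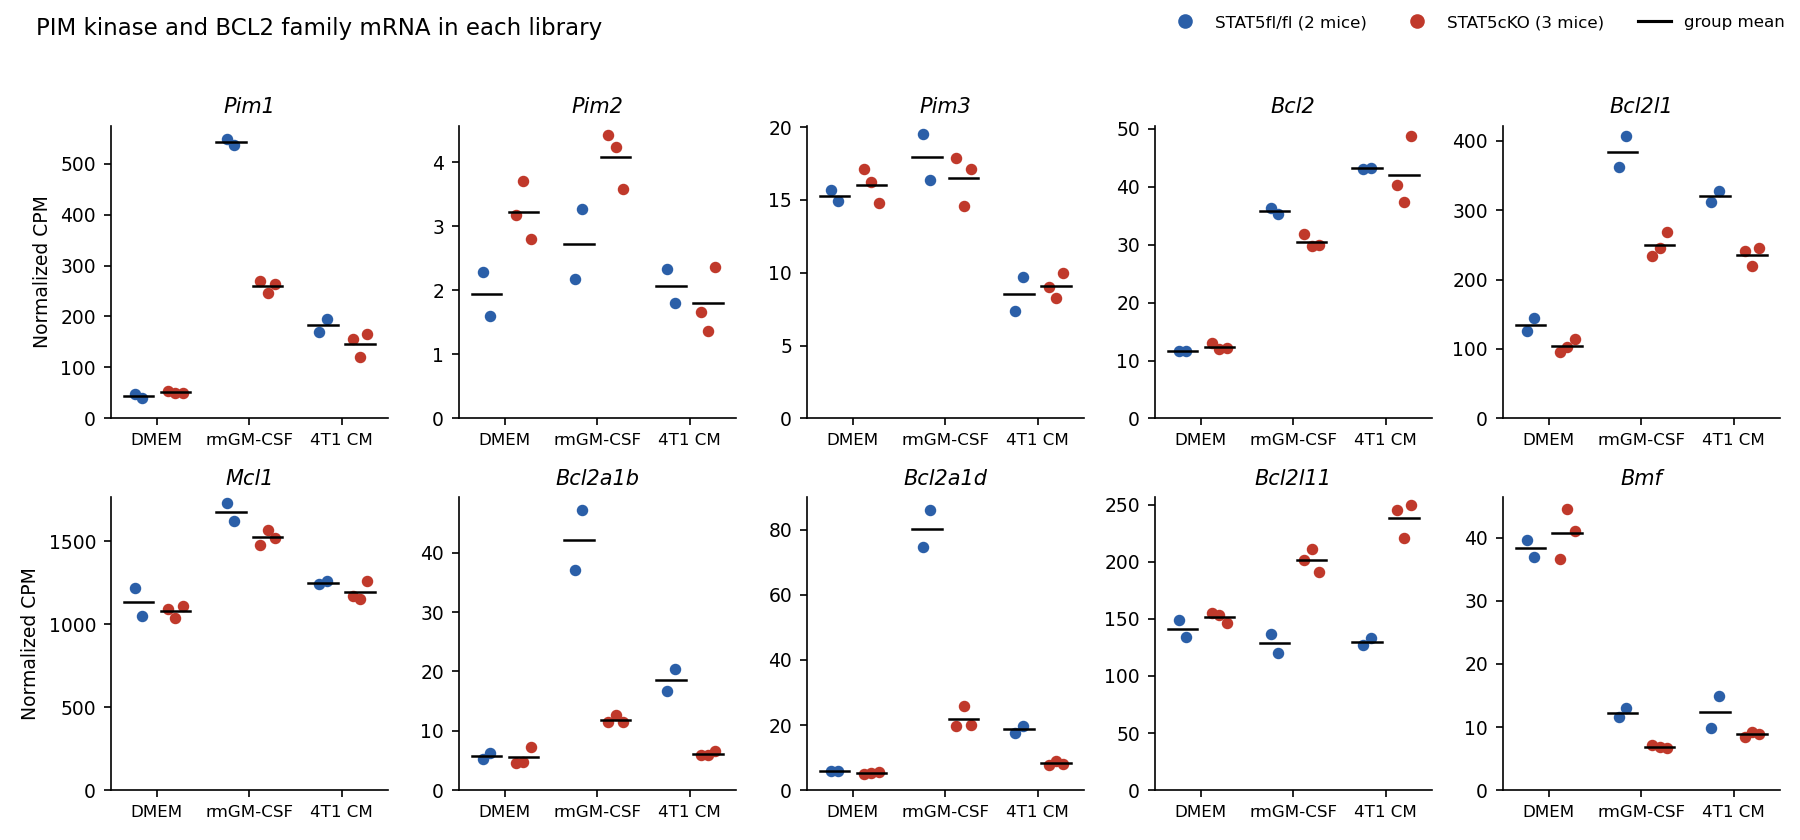
Each panel plots the level of a gene in normalized CPM (vertical axis, from 0) in the 15 libraries, grouped by treatment, with blue points for the 2 STAT5fl/fl mice, red points for the 3 STAT5cKO mice and a black line at each group mean. With rmGM-CSF the blue and red points of Pim1, Bcl2l1, Bcl2a1b, Bcl2a1d, Bcl2l11 and Bmf, the genes called there, are apart. Those of Pim2, Bcl2 and Mcl1 do not overlap either, without a call, and those of Pim3 overlap. In DMEM the genotypes lie close together other than for Pim2 and Bcl2l1.

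To ask how macrophages set these genes when they meet GM-CSF or tumor cell medium, each treatment was compared with DMEM within a genotype. Changes are log2 fold changes (log2FC) with their standard error (SE), and a gene was called at an adjusted p under 0.01 in edgeR's quasi-likelihood test over all 13005 genes. In STAT5fl/fl BMDMs rmGM-CSF raised 6 of the 10 genes (Pim1, Bcl2, Bcl2l1, Mcl1, Bcl2a1b and Bcl2a1d) and lowered 1 (Bmf), where 15.9% of all genes rose and 12.6% fell. In STAT5cKO BMDMs it raised the same 6 and Bcl2l11 and lowered Bmf, where 13.3% of all genes rose and 10.2% fell.

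With 4T1 CM against DMEM, 5 of the 10 genes (Pim1, Bcl2, Bcl2l1, Bcl2a1b and Bcl2a1d) rose and 2 (Pim3 and Bmf) fell in STAT5fl/fl cells, where 19.2% of all genes rose and 18.2% fell. In STAT5cKO cells 5 (Pim1, Bcl2, Bcl2l1, Bcl2a1d and Bcl2l11) rose and 3 (Pim2, Pim3 and Bmf) fell, where 19.3% of all genes rose and 18.4% fell. Set directly against rmGM-CSF, 4T1 CM gave no higher and 5 lower genes in STAT5fl/fl cells (Pim1, Pim3, Mcl1, Bcl2a1b and Bcl2a1d), where 13.8% of all genes were higher and 16.7% lower. In STAT5cKO cells it gave 2 higher genes (Bcl2 and Bcl2l11) and 6 lower ones (Pim1, Pim2, Pim3, Mcl1, Bcl2a1b and Bcl2a1d), where 16.6% of all genes were higher and 17.5% lower. The 2 treatments share their DMEM libraries, so their differences from DMEM are not independent. Markers moved with treatment in the same libraries. Zbtb46, a dendritic cell gene, rose with rmGM-CSF (log2FC 2.34 in STAT5fl/fl and 1.87 in STAT5cKO, within a list summing to 0.506 to 3.86 normalized CPM, with Xcr1 at or under 3 counts in every library), and Fcgr1, a macrophage Fc receptor, rose with 4T1 CM (1.80 and 1.69). Of the 8 macrophage markers 4 rose with 4T1 CM in STAT5fl/fl (Itgam, Mertk, Fcgr1 and Cd14) and 3 in STAT5cKO (Itgam, Fcgr1 and Cd14), and none fell. With rmGM-CSF Itgam and Cd14 rose in STAT5fl/fl, and in STAT5cKO Cd14 rose and Mertk fell. Kit, of the mast cell list, fell with 4T1 CM in both genotypes (-1.31 and -1.49). S100a8, of the neutrophil list, rose with 4T1 CM in STAT5cKO (1.96). The part of these markers in the treatment responses was not tested.

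**Figure D2:**
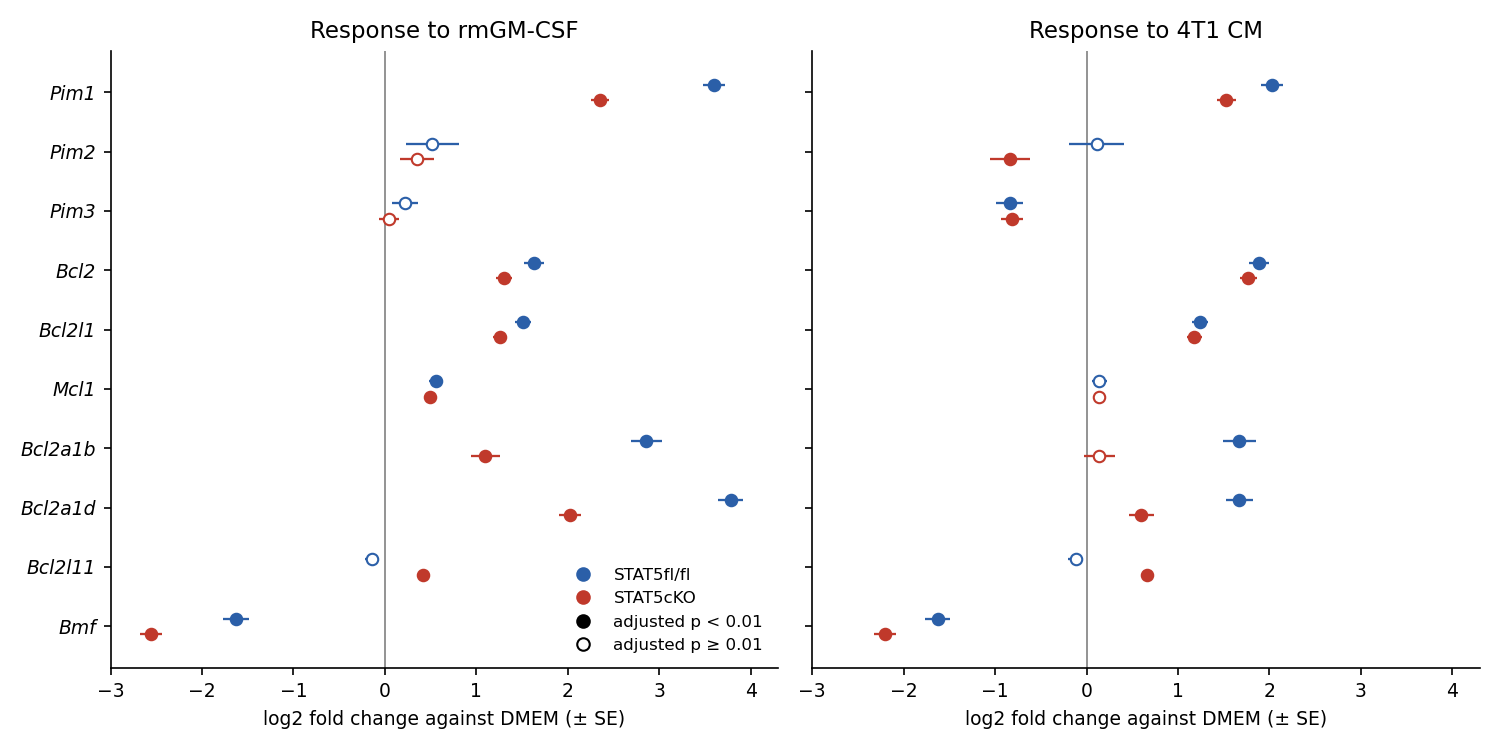
The panels plot the log2FC against DMEM (horizontal axis, ± SE) of each gene with rmGM-CSF (left) and 4T1 CM (right), in blue for STAT5fl/fl and red for STAT5cKO, filled where the adjusted p was under 0.01. For Bcl2a1b, Bcl2a1d and Pim1 the red points sit to the left of the blue ones in both panels, for Bcl2l11 to the right.

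To ask what STAT5 contributed, STAT5cKO was compared with STAT5fl/fl within each treatment. None of the 10 genes was called in DMEM, where 0.938% of all genes were higher and 1.55% lower in STAT5cKO. Of the 10, 2 had an unadjusted p under 0.05 in edgeR and DESeq2 called 1, Bcl2l1, which edgeR called as well without mouse 116 (log2FC -0.45, adjusted p = 0.00907). With rmGM-CSF 1 gene was higher in STAT5cKO (Bcl2l11) and 5 were lower (Pim1, Bcl2l1, Bcl2a1b, Bcl2a1d and Bmf), against 3.57% and 6.24% of all genes. With 4T1 CM 1 was higher (Bcl2l11) and 3 were lower (Bcl2l1, Bcl2a1b and Bcl2a1d), against 4.13% and 3.57%. The median log2FC of the 10 was -0.43 with rmGM-CSF and -0.26 with 4T1 CM, and that of all genes tested 0 and 0.01. Bulk RNA cannot tell fewer cells of a type from less RNA per cell.

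The genotype difference itself was then compared between treatments by an interaction term. Relative to DMEM it was more negative with rmGM-CSF for 4 genes (Pim1, Bcl2a1b, Bcl2a1d and Bmf) and more positive for 1 (Bcl2l11), against 2.22% and 0.884% of all genes. With 4T1 CM it was more negative for 2 (Bcl2a1b and Bcl2a1d) and more positive for 1 (Bcl2l11), against 0.538% and 0.730% of all genes. These counts moved with the mice, as did those over all genes. The 5 calls with rmGM-CSF became 3 without mouse 114, 115 or 116, and the 3 with 4T1 CM became 1 without mouse 116. Over all genes rmGM-CSF gave 115 positive and 289 negative calls. Without mouse 114, 115 and 116 it gave 71 and 200, 64 and 198, and 56 and 199. For 4T1 CM, 95 and 70 became 51 and 39, 49 and 41, and 52 and 47. Leaving out mouse 112 or 113 leaves 1 STAT5fl/fl library a group, so the counts above cover mice 114, 115 and 116 only. Calls of both interactions were lost without mouse 112 or 113 as well. Without each mouse in turn, the 4T1 CM interaction was -1.61 to -1.34 for Bcl2a1b, -1.16 to -0.96 for Bcl2a1d and 0.67 to 0.88 for Bcl2l11.

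Markers differed with genotype in the same libraries. The mast cell list summed to 15.9 to 23.6 normalized CPM in STAT5fl/fl cells and 3.77 to 7.49 in STAT5cKO cells with DMEM or rmGM-CSF. With 4T1 CM it summed to 6.25 to 8.18 and 1.18 to 4.07. Of this list only Kit, a receptor also carried by progenitors, exceeded 3 counts, while Cpa3 and Mcpt4 were at or under 3 counts in every library. The T cell list, in which only Cd4 exceeded 3 counts, summed to 8.91 to 10.5 normalized CPM in STAT5fl/fl and 5.8 to 7.36 in STAT5cKO libraries. Of the 8 macrophage markers, Lyz2 was higher in STAT5cKO in all 3 media (log2FC 0.63, 0.63 and 0.60 in DMEM, rmGM-CSF and 4T1 CM) and Cd14 in DMEM and 4T1 CM (0.48 and 0.51). No other marker of the 8 was called, and the list's median log2FC was 0.1, -0.05 and -0.07 in the same order of media. Of the 8, 3, 4 and 5 had an unadjusted p under 0.05 in edgeR. With rmGM-CSF DESeq2 called 3 of the 8. The part of these markers in the genotype differences was not tested.

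**Figure D3:**
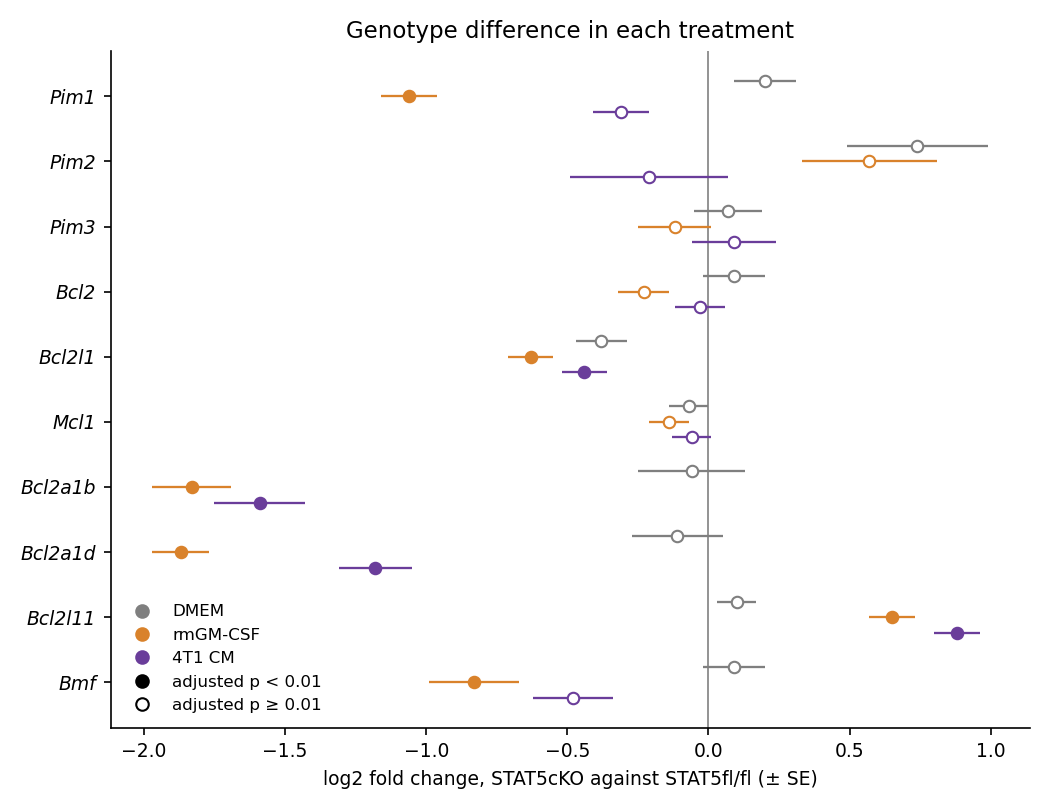
The horizontal axis is the log2FC of STAT5cKO against STAT5fl/fl (± SE) for each gene in DMEM (grey), rmGM-CSF (orange) and 4T1 CM (purple), and filled points had an adjusted p under 0.01. Both A1 genes lie below -1 with either treatment and near 0 in DMEM, and Bcl2l11 is the gene with filled points above 0.

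Pim1 (ENSMUSG00000024014, chr17:29490753-29496112) gave the clearest response among the kinases. In STAT5fl/fl cells (mice 112 and 113) it was at 48.1 and 41.1 normalized CPM in DMEM, 549 and 536 with rmGM-CSF and 170 and 195 with 4T1 CM. In STAT5cKO cells (mice 114, 115 and 116) it was at 53.1, 50.3 and 49.8 in DMEM, 270, 246 and 264 with rmGM-CSF and 155, 121 and 165 with 4T1 CM. With rmGM-CSF each STAT5cKO library thus lay below both STAT5fl/fl libraries by a wide margin, in DMEM each lay slightly above them, and with 4T1 CM each lay slightly below. The rise with rmGM-CSF was 12.2-fold in STAT5fl/fl (log2FC 3.60, SE 0.12, adjusted p = 4e-13) and 5.09-fold in STAT5cKO (log2FC 2.35, SE 0.10, adjusted p = 4.34e-12). Their difference was -1.26 on the log2 scale (SE 0.15, adjusted p = 3.48e-05). With rmGM-CSF Pim1 was 2.08-fold lower in STAT5cKO (log2FC -1.06, SE 0.10, adjusted p = 5.31e-07).

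With 4T1 CM Pim1 rose 4.1-fold in STAT5fl/fl and 2.88-fold in STAT5cKO cells. The genotype difference with 4T1 CM (log2FC -0.31, SE 0.10, adjusted p = 0.0469) and the interaction (-0.51, SE 0.15, adjusted p = 0.0861) did not pass the threshold. 4T1 CM left Pim1 2.97-fold below its level with rmGM-CSF in STAT5fl/fl cells and 1.77-fold below it in STAT5cKO cells (adjusted p = 5.84e-09 and 1.08e-06).

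Pim3 (ENSMUSG00000035828, chr15:88862186-88865726), the paralog most abundant in many non-lymphoid cells, behaved otherwise. It was at 15.7 and 14.9 normalized CPM in DMEM, 19.5 and 16.4 with rmGM-CSF and 7.40 and 9.71 with 4T1 CM in STAT5fl/fl cells. STAT5cKO cells had 17.1, 16.2 and 14.8 in DMEM, 17.9, 14.6 and 17.1 with rmGM-CSF and 9.04, 8.27 and 9.97 with 4T1 CM. The genotypes overlapped in all 3 treatments, and every library with 4T1 CM lay below every library with DMEM or rmGM-CSF. The fall with 4T1 CM was 1.79-fold in STAT5fl/fl (log2FC -0.84, SE 0.15, adjusted p = 0.00014) and 1.76-fold in STAT5cKO (-0.82, SE 0.12, adjusted p = 1.55e-05), and the former missed the threshold without mouse 112 (-0.62, adjusted p = 0.0212). No change with rmGM-CSF was called (0.22, SE 0.14, and 0.04, SE 0.11), nor a genotype difference, the 3 of which lay between -0.12 and 0.09.

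Pim2 (ENSMUSG00000031155, chrX:7878262-7883432), a kinase best known from lymphoid cells, was near the limit of these libraries at 29 to 95 counts. In STAT5fl/fl cells it was at 2.28 and 1.6 normalized CPM in DMEM, 2.18 and 3.27 with rmGM-CSF and 2.34 and 1.81 with 4T1 CM. In STAT5cKO cells it was at 3.17, 3.70 and 2.8 in DMEM, 4.42, 4.24 and 3.58 with rmGM-CSF and 1.66, 1.37 and 2.36 with 4T1 CM. STAT5cKO libraries were above those of STAT5fl/fl in DMEM and with rmGM-CSF without passing the threshold (log2FC 0.74, SE 0.25, adjusted p = 0.0836, and 0.57, SE 0.24, adjusted p = 0.118). A fall with 4T1 CM was called in STAT5cKO (-0.84, SE 0.22, adjusted p = 0.00502) and missed the threshold without mouse 114 (-0.79, adjusted p = 0.0429) or 115 (-0.56, adjusted p = 0.114). It also did so with the compared groups alone (adjusted p = 0.0125) and after thinning all libraries to the smallest total (0.0121).

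The A1 genes Bcl2a1b (ENSMUSG00000089929, chr9:89199209-89207827) and Bcl2a1d (ENSMUSG00000099974, chr9:88723285-88731914) showed the largest genotype differences of the 10. Their products are short-lived pro-survival proteins of blood cells. Bcl2a1d was at 5.96 and 5.74 normalized CPM in DMEM, 74.6 and 85.9 with rmGM-CSF and 17.7 and 19.6 with 4T1 CM in STAT5fl/fl cells. In STAT5cKO cells it was at 5.10, 5.4 and 5.69 in DMEM, 19.6, 25.9 and 20.0 with rmGM-CSF and 7.67, 8.93 and 8.06 with 4T1 CM. The genotypes lay side by side in DMEM and were far apart in both stimulated groups, where the lower STAT5fl/fl library exceeded the highest STAT5cKO library.

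The induction of Bcl2a1d by rmGM-CSF was 13.7-fold in STAT5fl/fl (log2FC 3.78, SE 0.14, adjusted p = 7.12e-13) and 4.06-fold in STAT5cKO (2.02, SE 0.12, adjusted p = 6.95e-10), and the difference of -1.76 passed the threshold (SE 0.19, adjusted p = 1.22e-05). With 4T1 CM it was 3.18-fold in STAT5fl/fl and 1.52-fold in STAT5cKO (log2FC 0.60, SE 0.14, adjusted p = 0.00131). The genotype difference was -1.87 with rmGM-CSF (SE 0.10, adjusted p = 8.41e-10), or 3.65-fold, and -1.18 with 4T1 CM (SE 0.13, adjusted p = 8.34e-06), or 2.26-fold. The interaction with 4T1 CM (-1.06, SE 0.20, adjusted p = 0.00689) missed the threshold without mouse 112 (-1.16, adjusted p = 0.0385), 113 (-0.96, 0.156), 114 (-1.05, 0.0235) or 116 (-1.01, 0.0396). It also missed the threshold with the mouse as a random replicate block (-1.06, adjusted p = 0.0116).

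Bcl2a1b was at 5.33 and 6.29 normalized CPM in DMEM, 37.1 and 47.2 with rmGM-CSF and 16.7 and 20.4 with 4T1 CM in STAT5fl/fl cells. STAT5cKO cells (in the same order of mice) had 4.64, 4.75 and 7.21 in DMEM, 11.5, 12.6 and 11.4 with rmGM-CSF and 5.87, 5.91 and 6.61 with 4T1 CM. With 4T1 CM the STAT5cKO libraries stood within the range of the DMEM libraries, whereas those of STAT5fl/fl were above it. In STAT5fl/fl the gene rose 7.26-fold with rmGM-CSF and 3.18-fold with 4T1 CM. In STAT5cKO it rose 2.14-fold with rmGM-CSF (log2FC 1.1, SE 0.16, adjusted p = 4.13e-05), and no change with 4T1 CM was called (0.14, SE 0.17, adjusted p = 0.531). The genotype difference was -1.83 with rmGM-CSF (SE 0.14, adjusted p = 4.97e-08) and -1.59 with 4T1 CM (SE 0.16, adjusted p = 4.68e-06).

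The interaction of Bcl2a1b was -1.77 with rmGM-CSF (SE 0.24, adjusted p = 0.000156) and -1.53 with 4T1 CM (SE 0.25, adjusted p = 0.00227). The latter missed the threshold without mouse 112 (-1.56, adjusted p = 0.0157), 113 (-1.51, 0.0343) or 116 (-1.34, 0.0109). Since fragments can be split between the copies, Bcl2a1a, Bcl2a1b, Bcl2a1c and Bcl2a1d were also summed into 1 feature. The sum was lower in STAT5cKO by 1.87 on the log2 scale with rmGM-CSF (log2FC -1.87, SE 0.11, adjusted p = 1.29e-09) and by 1.39 with 4T1 CM (-1.39, SE 0.12, adjusted p = 9.04e-07). Its rise with 4T1 CM in STAT5cKO was not called (0.40, SE 0.12, adjusted p = 0.0124), unlike that of Bcl2a1d alone.

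Bcl2l1 (ENSMUSG00000007659, chr2:152780668-152831728), the gene of BCL-XL, was lower in STAT5cKO cells whatever the medium. In STAT5fl/fl cells it was at 126 and 144 normalized CPM in DMEM, 362 and 406 with rmGM-CSF and 311 and 328 with 4T1 CM. STAT5cKO libraries had 95.6, 103 and 114 in DMEM, 234, 245 and 268 with rmGM-CSF and 241, 219 and 245 with 4T1 CM. No STAT5cKO library reached the lower STAT5fl/fl library of its treatment. The difference was -0.63 with rmGM-CSF (SE 0.08, adjusted p = 3.44e-05), or 1.54-fold, and -0.44 with 4T1 CM (SE 0.08, adjusted p = 0.00143), or 1.36-fold. The latter missed the threshold without mouse 113 (-0.41, adjusted p = 0.031) or 115 (-0.40, adjusted p = 0.0136).

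In DMEM the difference of Bcl2l1 was -0.38 (SE 0.09, adjusted p = 0.013), just outside the threshold, which it passed without mouse 116 (-0.45, adjusted p = 0.00907), with no filter on low counts (adjusted p = 0.00403) and in DESeq2 (adjusted p = 0.00102). Neither interaction of Bcl2l1 was called (-0.25, SE 0.12, adjusted p = 0.358 with rmGM-CSF, and -0.06, SE 0.12, adjusted p = 0.877 with 4T1 CM). Bcl2l1 rose with rmGM-CSF 2.84-fold in STAT5fl/fl and 2.39-fold in STAT5cKO, and with 4T1 CM 2.36-fold and 2.26-fold. Between 4T1 CM and rmGM-CSF in STAT5fl/fl it differed by -0.27 (SE 0.09, adjusted p = 0.0261), a difference called once the mouse entered as a fixed replicate block (-0.26, adjusted p = 0.00407).

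Bcl2 (ENSMUSG00000057329, chr1:106538178-106714274), the founding member of the family, rose with both treatments in both genotypes. STAT5fl/fl cells had 11.7 and 11.6 normalized CPM in DMEM, 36.3 and 35.3 with rmGM-CSF and 43.0 and 43.3 with 4T1 CM. STAT5cKO cells had 13.1, 12 and 12.1 in DMEM, 31.9, 29.7 and 30.0 with rmGM-CSF and 40.3, 37.3 and 48.7 with 4T1 CM. The genotypes were close in each treatment, and overlapped with 4T1 CM. With rmGM-CSF the rise was 3.09-fold in STAT5fl/fl and 2.47-fold in STAT5cKO, and with 4T1 CM it was 3.72-fold and 3.4-fold. No genotype difference was called, with log2FC of 0.09 (SE 0.11), -0.23 (SE 0.09) and -0.03 (SE 0.09) in DMEM, rmGM-CSF and 4T1 CM. In STAT5cKO cells Bcl2 was higher with 4T1 CM than with rmGM-CSF (log2FC 0.46, SE 0.08, adjusted p = 2e-04).

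Mcl1 (ENSMUSG00000038612, chr3:95658788-95663176), whose protein turns over within minutes to hours, was the most abundant of the 10 and varied least. It was at 1220 and 1050 normalized CPM in DMEM, 1730 and 1620 with rmGM-CSF and 1240 and 1260 with 4T1 CM in STAT5fl/fl cells. In STAT5cKO cells it was at 1090, 1040 and 1110 in DMEM, 1480, 1570 and 1520 with rmGM-CSF and 1170, 1150 and 1260 with 4T1 CM. Libraries with rmGM-CSF were the highest in both genotypes, and the genotypes overlapped in DMEM and with 4T1 CM. The rise with rmGM-CSF was 1.48-fold in STAT5fl/fl (log2FC 0.56, SE 0.08, adjusted p = 1.81e-05) and 1.41-fold in STAT5cKO (0.49, SE 0.06, adjusted p = 1.08e-05). With 4T1 CM no change was called (log2FC 0.14 in both, adjusted p = 0.146 and 0.0693). The genotype differences of -0.07, -0.14 and -0.06 in DMEM, rmGM-CSF and 4T1 CM, with an SE of 0.07 each, were not called. Mcl1 was 1.34-fold lower with 4T1 CM than with rmGM-CSF in STAT5fl/fl (log2FC -0.42), a call lost without mouse 112 (-0.36, adjusted p = 0.0148), and 1.27-fold lower in STAT5cKO (-0.35, SE 0.06, adjusted p = 0.00023).

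Bcl2l11 (ENSMUSG00000027381, chr2:128126038-128162547) encodes BIM, which binds every pro-survival protein of the family. It was the only one of the 10 genes called higher in STAT5cKO cells. In STAT5fl/fl cells it was at 149 and 134 normalized CPM in DMEM, 137 and 120 with rmGM-CSF and 127 and 133 with 4T1 CM. The STAT5cKO values were 155, 153 and 146 in DMEM, 202, 211 and 191 with rmGM-CSF and 245, 221 and 250 with 4T1 CM. The STAT5fl/fl libraries stayed in 1 narrow band across the 3 media, while the stimulated STAT5cKO libraries were all above every other library. No change with rmGM-CSF (log2FC -0.14, SE 0.08, adjusted p = 0.193) or 4T1 CM (-0.12, SE 0.08, adjusted p = 0.237) was called in STAT5fl/fl. In STAT5cKO the gene rose 1.34-fold with rmGM-CSF (0.42, SE 0.07, adjusted p = 9.99e-05) and 1.58-fold with 4T1 CM (0.66, SE 0.07, adjusted p = 2.17e-07).

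The genotype difference of Bcl2l11 was 0.65 with rmGM-CSF (SE 0.08, adjusted p = 8.12e-06), or 1.57-fold, and 0.88 with 4T1 CM (SE 0.08, adjusted p = 8.65e-07), or 1.84-fold. The interaction was 0.78 with 4T1 CM (SE 0.10, adjusted p = 0.000388), which missed the threshold without mouse 112 (0.67, adjusted p = 0.0157). With rmGM-CSF it was 0.56 (SE 0.11, adjusted p = 0.00296), and leaving out any 1 of the 5 mice gave 0.53 to 0.58 with adjusted p of 0.0114 (without mouse 116) to 0.0415 (without mouse 113). In STAT5cKO, Bcl2l11 was higher with 4T1 CM than with rmGM-CSF (0.24, SE 0.07, adjusted p = 0.00571), a call lost without mouse 114 (0.23, adjusted p = 0.0506) or 116 (0.17, adjusted p = 0.11) and after thinning (0.22, adjusted p = 0.0154).

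Bmf (ENSMUSG00000040093, chr2:118528757-118549687), whose product senses cytoskeletal stress and loss of attachment, fell with both treatments. It was at 39.6 and 37.0 normalized CPM in DMEM, 11.6 and 13 with rmGM-CSF and 9.88 and 14.9 with 4T1 CM in STAT5fl/fl cells. In STAT5cKO cells it was at 36.6, 44.5 and 41.1 in DMEM, 7.21, 6.83 and 6.71 with rmGM-CSF and 8.42, 9.17 and 8.97 with 4T1 CM. The genotypes overlapped in DMEM, and each stimulated STAT5cKO library was below the STAT5fl/fl libraries of its treatment. The fall with rmGM-CSF was 3.1-fold in STAT5fl/fl (log2FC -1.63, SE 0.14, adjusted p = 5.2e-08) and 5.88-fold in STAT5cKO (-2.56, SE 0.12, adjusted p = 3.16e-11), and with 4T1 CM it was 3.11-fold and 4.6-fold. The 2 BH3-only genes thus differed in opposite directions between genotypes with rmGM-CSF.

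With rmGM-CSF Bmf was 1.78-fold lower in STAT5cKO (log2FC -0.83, SE 0.16, adjusted p = 0.000999). The interaction (-0.92, SE 0.19, adjusted p = 0.00593) missed the threshold without mouse 113 (-0.78, adjusted p = 0.0512), 114 (-1.03, 0.011), 115 (-0.84, 0.0454) or 116 (-0.90, 0.04). With 4T1 CM the difference of -0.48 (SE 0.14, adjusted p = 0.0341) was outside the threshold and moved with the mice, from -0.75 without mouse 112 (adjusted p = 0.00367) to -0.16 without mouse 113 (adjusted p = 0.583).

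Levels were compared between genes as normalized CPM per kb of exon. Those of the A1 genes may be understated, since fragments can be split between the copies or dropped, so their places in the order may be too low. In DMEM the order was the same at the top in both genotypes. Mcl1 led at 332 ± 34.8 (SD, n = 2) in STAT5fl/fl and 317 ± 10.1 (SD, n = 3) in STAT5cKO, followed by Bcl2l1 (29.5 and 22.7), Bcl2l11 (17.6 and 18.8) and Pim1 (13.3 and 15.2). Bmf, Bcl2a1b, Bcl2a1d and Pim3 followed at 6.25 to 7.76. Among these the range of Bcl2a1b overlapped those of Bmf and Bcl2a1d in STAT5fl/fl. In STAT5cKO it overlapped those of Bmf, Pim3 and Bcl2a1d, and the range of Pim3 overlapped those of Bmf and Bcl2a1d as well. Bcl2 (1.27 and 1.35) and Pim2 (0.694 and 1.15) were last, and their ranges overlapped in STAT5cKO.

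rmGM-CSF moved Pim1 to the second place in both genotypes, at 161 ± 2.7 per kb in STAT5fl/fl and 77.4 ± 3.67 in STAT5cKO. In STAT5fl/fl it was followed by Bcl2a1d (93.0) and Bcl2l1 (83.8), whose ranges overlapped, by Bcl2a1b (51.6) and by Bcl2l11 (16). In STAT5cKO Bcl2l1 (54.3) was ahead of Bcl2a1d (25.3) and Bcl2l11 (25.1), which overlapped, and Bcl2a1b had 14.5. Pim3, Bcl2, Bmf and Pim2 were at 0.976 to 7.39 in both.

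With 4T1 CM, Bcl2l1 (69.6) was ahead of Pim1 (54.3) in STAT5fl/fl, and in STAT5cKO the 2 overlapped (51.2 and 43.8). Bcl2a1b (22.7) and Bcl2a1d (21.6) overlapped in STAT5fl/fl and were ahead of Bcl2l11 (16.2). In STAT5cKO this order was inverted, with Bcl2l11 at 29.7 ± 1.95 against 9.53 ± 0.75 for Bcl2a1d and 7.5 ± 0.514 for Bcl2a1b. Bcl2, Pim3, Bmf and Pim2 were again the lowest, at 0.642 to 4.71.

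**Figure D4:**
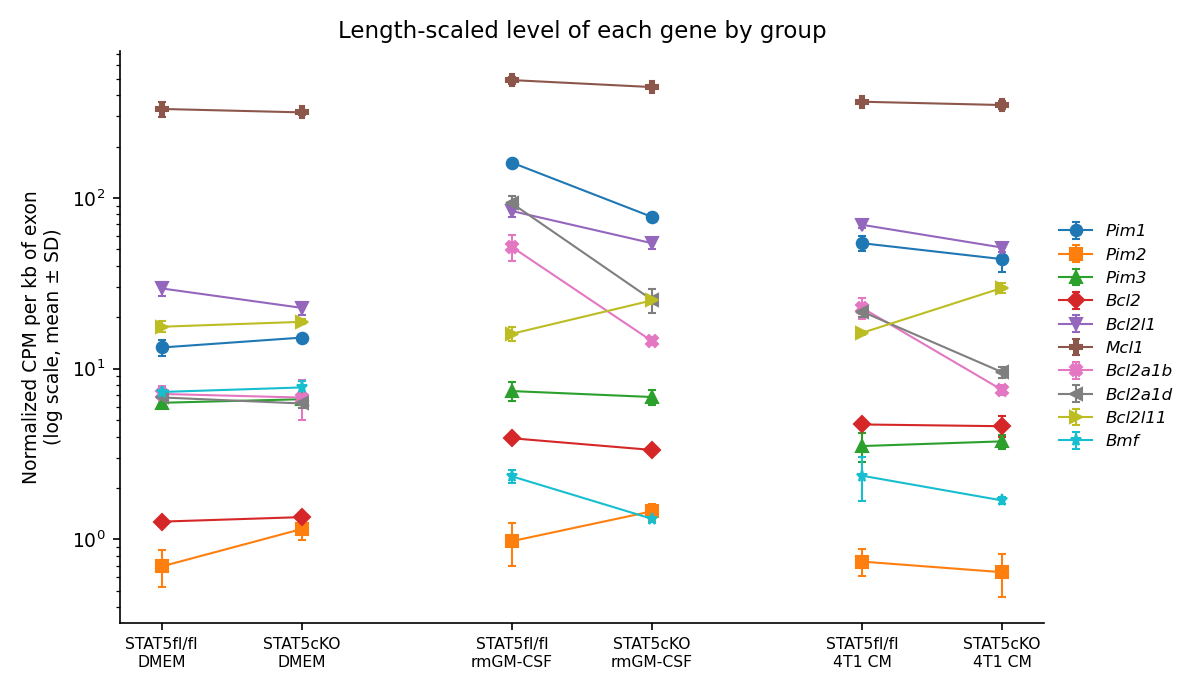
The vertical axis (log scale) gives the mean level of each gene as normalized CPM per kb of exon, with SD bars over 2 STAT5fl/fl or 3 STAT5cKO libraries, and lines join the genotypes of a treatment. Mcl1 is highest in all 6 groups, and the line of Bcl2l11 crosses that of Bcl2a1b with rmGM-CSF and those of both A1 genes with 4T1 CM.

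The genes whose profiles over the 15 libraries were nearest to a member were found by the root mean square (RMS) difference of centred log2 CPM. For Pim1 they were Nod2 (0.24), Lcp2 (0.26) and Sdc4 (0.26). For Bcl2l1 they were Cd44 (0.16), Plau (0.19) and Etv5 (0.19). Lrrk2 (0.16), Tpm1 (0.16) and Nckap1 (0.18) were nearest to Bcl2l11, Mgat4b (0.13), Themis2 (0.14) and Mbtd1 (0.15) to Pim3, and Eif4a1 (0.07), Khdc4 (0.08) and Hnrnpab (0.08) to Mcl1. The profiles share libraries and scaling, and their likeness is a description.

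Among the other BCL2 family genes, 11 of 18 passed the filter. With genotype, 1 was higher (Pmaip1) and 1 lower (Bcl2a1a) in STAT5cKO, the same genes with rmGM-CSF and with 4T1 CM, and the list's median log2FC was 0.09 and 0.10 against 0 and 0.01 for all genes. Of all genes 3.57% were higher and 6.24% lower with rmGM-CSF, and 4.13% and 3.57% with 4T1 CM. DESeq2 called 3 of the 11 with 4T1 CM, the third being Bid (log2FC -0.43, adjusted p = 0.00793, against 0.0227 in edgeR), which edgeR called without mouse 116 (-0.57, adjusted p = 0.000671) or with no filter (0.00877). Pmaip1, which encodes the MCL1-binding BH3-only protein NOXA, was at 14.2 to 19.3 normalized CPM in STAT5fl/fl and 28.2 to 31.1 in STAT5cKO with rmGM-CSF (log2FC 0.85, SE 0.11, adjusted p = 2.53e-05), and at 11.8 to 13.3 and 22.6 to 24 with 4T1 CM (0.88, SE 0.11, adjusted p = 4.38e-05). Both calls held without each mouse in turn. Bcl2a1a, a further A1 copy, had 73 to 96 counts in STAT5fl/fl and 11 to 21 in STAT5cKO with rmGM-CSF (log2FC -2.44, SE 0.27, adjusted p = 2.71e-06). With 4T1 CM it had 19 to 27 and 4 to 9 counts, and that call (-1.94, adjusted p = 0.00714) was lost without any 1 mouse (adjusted p of 0.0158 to 0.137). In DMEM edgeR called none of the 11, 3 had an unadjusted p under 0.05 and DESeq2 called 1, Bax (log2FC 0.32, adjusted p = 0.00588), a gene named here after its values were seen.

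With treatment, Bbc3, the BH3-only gene of PUMA, fell with rmGM-CSF (log2FC -0.98 in STAT5fl/fl and -0.92 in STAT5cKO) and with 4T1 CM (-1.58 and -1.40). Bid and Bak1 rose with rmGM-CSF in both genotypes, Bid by 0.71 and 0.59 and Bak1 by 0.38 and 0.30 on the log2 scale, and in STAT5fl/fl the call of Bid was lost without mouse 112 (adjusted p = 0.0157) or 113 (0.0434). Of the 11 genes 4 rose and 2 fell with rmGM-CSF in STAT5fl/fl and 5 and 3 in STAT5cKO, and with 4T1 CM 3 rose and 3 fell in STAT5fl/fl and 2 and 3 in STAT5cKO. Of all genes 15.9% rose and 12.6% fell with rmGM-CSF in STAT5fl/fl and 13.3% and 10.2% in STAT5cKO, and 19.2% and 18.2%, and 19.3% and 18.4%, with 4T1 CM.

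Of the caspases, apoptosome genes and their inhibitors all 20 passed the filter. With genotype 1 was higher and 1 lower with rmGM-CSF, against 3.57% and 6.24% of all genes, and 3 were higher and 1 lower with 4T1 CM, against 4.13% and 3.57%. None was called in DMEM by edgeR or DESeq2, where 3 had an unadjusted p under 0.05. With rmGM-CSF Casp2 was higher in STAT5cKO (log2FC 0.37, SE 0.09, adjusted p = 0.00612, interaction 0.51, adjusted p = 0.00933), and both calls were lost without any 1 mouse (adjusted p of 0.0133 to 0.0663 and 0.0205 to 0.108) and with no filter (0.0122 and 0.0166). The former was also lost with the mouse as a random replicate block (adjusted p = 0.0103). Casp8, the initiator caspase of death receptors, was lower with rmGM-CSF (-0.40, SE 0.07, adjusted p = 0.000393) and with 4T1 CM (-0.46, SE 0.07, adjusted p = 0.00013), calls lost without mouse 113 (-0.34, adjusted p = 0.0263, and -0.41, adjusted p = 0.0103). With 4T1 CM Apaf1 (0.29, adjusted p = 0.00334), Birc3 (0.43, adjusted p = 0.00116) and Cflar (0.35, adjusted p = 0.00889) were higher in STAT5cKO. Without mouse 113 these had adjusted p of 0.0894, 0.0439 and 0.233, and Cflar a log2FC of 0.17. Apaf1 also missed the threshold without mouse 112 or 115, Birc3 without 112, and Cflar without 114, 115 or 116.

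Cflar, which encodes the caspase-8 inhibitor c-FLIP, rose with rmGM-CSF by 2.27 and 2.16 and with 4T1 CM by 1.34 and 1.68 on the log2 scale in STAT5fl/fl and STAT5cKO. Birc3, the gene of an inhibitor of apoptosis protein, rose by 1.55 and 1.39 with rmGM-CSF and by 0.30 and 0.60 with 4T1 CM. Casp8 rose with 4T1 CM by 1.45 and 1.1, and Casp2 fell with rmGM-CSF (log2FC -1.48 and -0.97). Of the 20 genes 4 rose and 3 fell with rmGM-CSF in STAT5fl/fl and 5 and 1 in STAT5cKO, and with 4T1 CM 7 rose and 4 fell in STAT5fl/fl and 8 and 4 in STAT5cKO. The shares of all genes that rose and fell were 15.9% and 12.6%, 13.3% and 10.2%, 19.2% and 18.2%, and 19.3% and 18.4% in the same order of comparisons.

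Upstream of the survival genes, the GM-CSF receptor, AKT and FOXO list had 9 of 9 genes tested. None was higher in STAT5cKO in any treatment, and 3 were lower with rmGM-CSF (Csf2rb, Csf2rb2 and Jak2) and 2 with 4T1 CM (Csf2rb and Csf2rb2), with list medians of -0.22 and -0.10. The shares of all genes called lower were 6.24% and 3.57%. In DMEM edgeR and DESeq2 called none, and 1 had an unadjusted p under 0.05. Csf2rb, the shared beta chain of the receptor, was at 1660 to 1680 normalized CPM in STAT5fl/fl and 689 to 782 in STAT5cKO with rmGM-CSF (log2FC -1.21, SE 0.07, adjusted p = 1.92e-09) and at 1900 in both STAT5fl/fl libraries and 1150 to 1320 in STAT5cKO with 4T1 CM (-0.61, SE 0.07, adjusted p = 1.85e-05). In DMEM it was at 617 to 618 and 559 to 623. Its interaction was -1.15 with rmGM-CSF (SE 0.10, adjusted p = 1.79e-06) and -0.55 with 4T1 CM (adjusted p = 0.00641), the latter lost without mouse 112, 113, 114 or 115 (adjusted p of 0.0163 to 0.148).

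Csf2rb2, a close paralog of Csf2rb with which fragments may be split, was lower by 0.73 with rmGM-CSF (log2FC -0.73, SE 0.07, adjusted p = 8.29e-07, interaction -0.61, adjusted p = 0.000953) and by 0.39 with 4T1 CM (-0.39, adjusted p = 0.00117). The interaction and the 4T1 CM call were lost without mouse 112 (adjusted p = 0.0296 and 0.0165) or 113 (0.0412 and 0.0444). Jak2 was lower with rmGM-CSF (-0.31, adjusted p = 0.00842), a call lost without mouse 112 (0.0417), 113 (0.139), 114 (0.0258) or 116 (0.049). Foxo3, a FOXO gene, fell with rmGM-CSF (log2FC -1.04 in STAT5fl/fl and -1.15 in STAT5cKO) and 4T1 CM (-0.71 in both), while Foxo1 rose with 4T1 CM (1.24 and 1.40). No genotype difference was called for Foxo1, Foxo3 or Foxo4. Of the 9 genes 3 rose and 2 fell with rmGM-CSF in STAT5fl/fl and 3 and 1 in STAT5cKO, and 5 rose and 2 fell with 4T1 CM in each genotype. These counts stand beside 15.9% and 12.6%, and 13.3% and 10.2%, of all genes with rmGM-CSF, and 19.2% and 18.2%, and 19.3% and 18.4%, with 4T1 CM.

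The genes of 8 PIM kinase substrates were all tested. Cdkn1a, the gene of the cell cycle inhibitor p21, was higher in STAT5cKO in DMEM (147 to 159 against 78.8 to 79.5 normalized CPM, log2FC 0.95, SE 0.09, adjusted p = 1.52e-05) and lower with rmGM-CSF (466 to 498 against 829 to 905, -0.86, SE 0.09, adjusted p = 1.22e-06). Its interaction with rmGM-CSF was -1.81 (SE 0.13, adjusted p = 1.19e-07). With 4T1 CM the difference of 0.36 (SE 0.09, adjusted p = 0.0101) and the interaction of -0.59 (SE 0.13, adjusted p = 0.014) were just outside the threshold, and DESeq2 called both (adjusted p = 0.00101 and 0.000372). The former was called with the random replicate block (adjusted p = 0.00694), the latter with the fixed one (0.00278). Eif4ebp1, a repressor of translation, was lower with rmGM-CSF (-0.62, SE 0.08, adjusted p = 2.87e-05) and with 4T1 CM (-0.36, adjusted p = 0.00652), the latter lost without any 1 mouse (adjusted p of 0.0218 to 0.035). Myc was lower with rmGM-CSF (-0.38, adjusted p = 0.00502), a call lost without mouse 112 (0.0181), 113 (0.128) or 115 (0.0278), and rose by 2.98 and 2.61 with rmGM-CSF and by 3.76 and 3.80 with 4T1 CM in STAT5fl/fl and STAT5cKO. The list's median genotype log2FC lay between -0.05 and 0.04. Of the 8 genes 3 rose and 1 fell with rmGM-CSF in STAT5fl/fl and 3 and 2 in STAT5cKO, and with 4T1 CM 2 rose and 1 fell in STAT5fl/fl and 3 and 2 in STAT5cKO. Over all genes the shares were 15.9% and 12.6%, and 13.3% and 10.2%, with rmGM-CSF, and 19.2% and 18.2%, and 19.3% and 18.4%, with 4T1 CM.

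Of 6 genes of MCL1 protein turnover 4 were tested, and Fbxw7, part of a ubiquitin ligase for MCL1, was the only one to differ with genotype. It was at 83.4 to 94.1 normalized CPM in STAT5fl/fl and 43.5 to 47.2 in STAT5cKO in DMEM (log2FC -0.98, SE 0.09, adjusted p = 1.42e-05) and at 52.5 to 59.1 and 33.1 to 39.2 with rmGM-CSF (-0.62, SE 0.10, adjusted p = 0.000298). With 4T1 CM none of the 4 was called by edgeR or DESeq2, and 2 had an unadjusted p under 0.05. Fbxw7 was thus 1 of 4 in DMEM and with rmGM-CSF. Of all genes 0.938% were higher and 1.55% lower in DMEM, 3.57% and 6.24% with rmGM-CSF, and 4.13% and 3.57% with 4T1 CM. Fbxw7 fell with 4T1 CM in STAT5fl/fl (log2FC -1.47) and STAT5cKO (-0.82) and with rmGM-CSF in STAT5fl/fl (-0.67). With rmGM-CSF in STAT5cKO its value was -0.31 (adjusted p = 0.0144), called by DESeq2 (adjusted p = 0.00852) and with the fixed (0.00966) or random (0.00996) replicate block. Its 4T1 CM interaction of 0.64 (adjusted p = 0.0183) was called by DESeq2 (0.00207) and with the fixed block (0.00786).

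**Figure D5:**
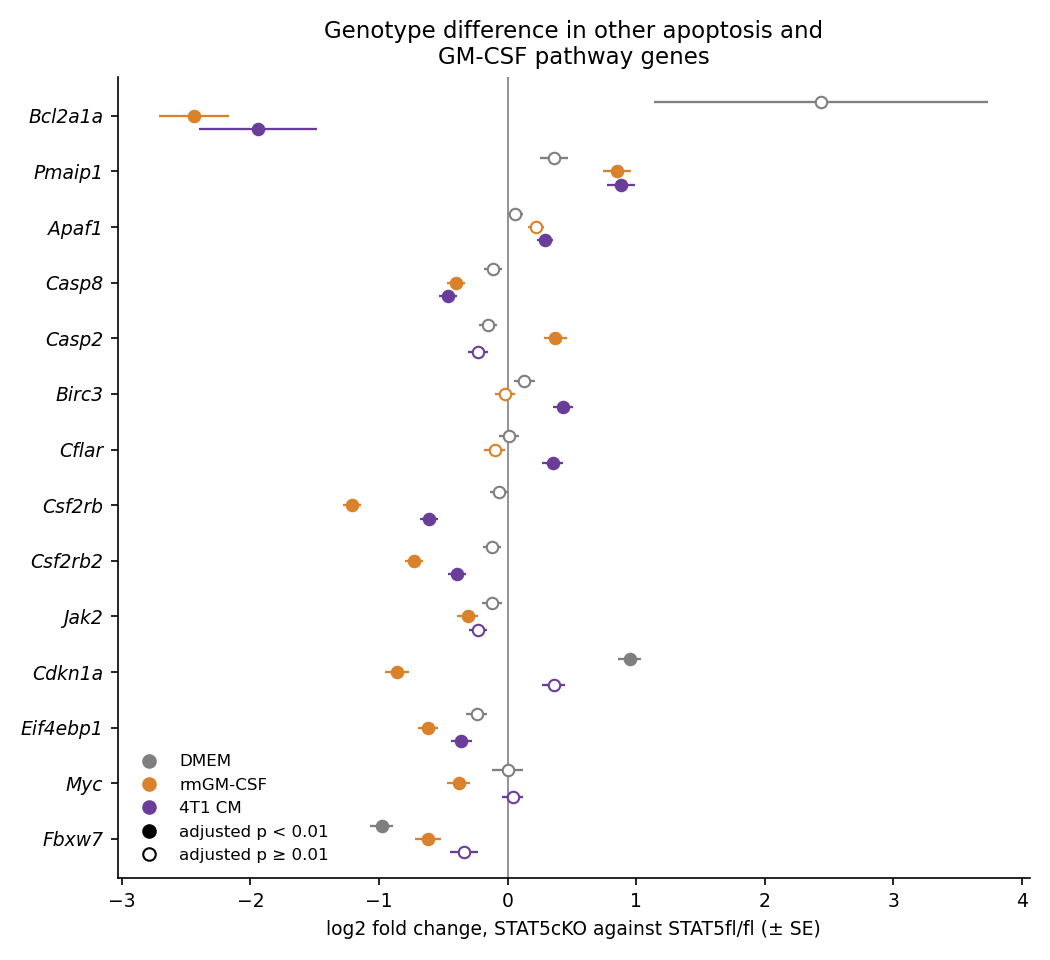
The horizontal axis is the log2FC of STAT5cKO against STAT5fl/fl (± SE) in DMEM (grey), rmGM-CSF (orange) and 4T1 CM (purple) for the 14 genes of the other lists called in a genotype comparison or interaction, filled where the adjusted p was under 0.01. Csf2rb and Csf2rb2 lie left of 0 with both treatments and Pmaip1 right of 0, and the DMEM value of Bcl2a1a rests on 0 to 5 counts per library.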

How the data were processed

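Poly(A) RNA of 15 BMDM cultures was sequenced from TruSeq stranded libraries. Per the labels and methods, the authors trimmed reads with Trimmomatic 0.33, aligned them to GRCm38 with HISAT2 2.1.0 and counted fragments per gene with featureCounts 1.6.2, and they left out 1 further STAT5fl/fl replicate at quality control. The deposited values are raw counts, with 16016736 to 22883108 per library, so 3 counts, the floor used here, are 0.131 to 0.187 CPM. Counting error alone is covered by that floor.

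Groups came from the labels, and the number of a library was taken as its mouse. Deviations from the group mean were correlated between libraries. In STAT5cKO r was 0.055 to 0.214 (mean 0.156) over 9 pairs of the same number. Over 18 pairs of different numbers it was -0.238 to 0.149 (mean -0.078), so the ranges overlapped. In STAT5fl/fl, with 2 libraries a group, deviations mirror each other. There r within a number (0.093 to 0.213) is the negative of that between numbers by construction. Genotypes share no number. Each mouse gave 1 library a treatment, and p-values measure the spread between these libraries. Genes with over 1 CPM in at least 2 libraries were scaled by relative log expression and fitted in 1 model of 6 groups with edgeR 4.0.16 in R 4.3.3 (quasi-likelihood test, Benjamini-Hochberg adjusted p under 0.01), which was tested on simulated data. Normalized CPM are counts scaled to library totals after this normalization. Alternatives were TMM scaling, no filter, edgeR's filterByExpr, the likelihood ratio test, DESeq2 1.42.0, a threshold of 0.05, the compared groups alone, a replicate block (fixed, or random with limma 3.58.1), thinning, leaving out each mouse, summed Bcl2a1 copies and, chosen after seeing the data, the legacy quasi-likelihood test. Promoters came from RefSeq (GRCm38.p6).

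The members and lists were chosen with earlier results of these data known. Named were all members, genes of the other lists called in a genotype comparison or interaction, up to 3 called genes a list with the largest change in a treatment comparison, Stat5a, Stat5b and Cish, and the 3 nearest profiles of 5 members. Marker genes were named only as a check of the cells.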

Additional observations from a re-analysis of the deposited data

Results flagged for a closer look

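The difference between STAT5cKO and STAT5fl/fl changed with the medium, by the interaction term of edgeR's quasi-likelihood test, for 5 genes with rmGM-CSF and 3 with 4T1 CM, each relative to DMEM. With rmGM-CSF the change was -1.26 for Pim1 (adjusted p = 3.48e-05), -1.77 for Bcl2a1b (adjusted p = 0.000156), -1.76 for Bcl2a1d (adjusted p = 1.22e-05), 0.56 for Bcl2l11 (adjusted p = 0.00296) and -0.92 for Bmf (adjusted p = 0.00593) on the log2 scale. With 4T1 CM it was -1.53 for Bcl2a1b (adjusted p = 0.00227), -1.06 for Bcl2a1d (adjusted p = 0.00689) and 0.78 for Bcl2l11 (adjusted p = 0.000388). The values of Pim1, Bcl2a1b and Bcl2a1d with rmGM-CSF passed the threshold without each mouse in turn, and each of the other 5 missed it without at least 1 mouse. Both sets use the same DMEM libraries.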

How the results depend on the processing

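Of the counts of members called under each alternative, 161 were within 1.5 times the reported count and 12 were not. In DMEM the count of 0 for genotype became 1 with no filter, the likelihood ratio test, an adjusted p under 0.05 or DESeq2. Leaving out 1 mouse gave 0 to 1 for genotype in DMEM, 6 in every case with rmGM-CSF and 3 to 5 with 4T1 CM, 3 to 4 for the interaction with rmGM-CSF and 0 to 3 for that with 4T1 CM. For treatments it gave 7 (rmGM-CSF), 6 to 7 (4T1 CM) and 4 to 5 (4T1 CM against rmGM-CSF) in STAT5fl/fl, and 8, 7 to 8 and 7 to 8 in STAT5cKO. Where 1 STAT5fl/fl library was left, it was assumed to vary like the other groups. Of single member values 1685 kept their direction and side of the threshold, 30 were no longer called, 11 became called and 26 changed sign, none of which was called.

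The changes of sign were these, as log2FC, with leave-one-out values as a range. Bmf between 4T1 CM and rmGM-CSF in STAT5fl/fl was 0.01 with TMM or the compared groups alone, 0 with DESeq2, the likelihood ratio or the legacy test, and -0.23 (without mouse 113) to 0.19 (without 112). The 4T1 CM interaction of Mcl1 was 0 with either replicate block and -0.12 (without 112) to 0.12 (113), also -0.02 without 116, and that of Pim3 -0.02 after thinning and -0.2 (112) to 0.27 (113), also -0.1 without 116. With genotype in DMEM, Bcl2a1b was 0.09 after thinning and -0.31 (116) to 0.06 (113), also 0.05 and 0.04 without 114 and 115, and Mcl1 was -0.17 (113) to 0.04 (112). With genotype Pim3 was -0.09 (112) to 0.3 (113) in 4T1 CM and -0.24 (113) to 0.01 (112) in rmGM-CSF, and Bcl2 in 4T1 CM was -0.15 (116) to 0.04 (115). Between 4T1 CM and rmGM-CSF in STAT5fl/fl, Bcl2l11 was -0.11 (113) to 0.15 (112) and Pim2 -0.86 (112) to 0.1 (113). For rmGM-CSF against DMEM, Pim2 was -0.06 (113) to 1.03 (112) in STAT5fl/fl, its interaction was -0.68 (112) to 0.41 (113), and Pim3 in STAT5cKO was -0.04 (116) to 0.14 (115). The causes were not tested.

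With the mouse as a fixed replicate block, which cannot be fitted between genotypes, Bcl2l1 between 4T1 CM and rmGM-CSF in STAT5fl/fl became called (-0.26, adjusted p = 0.00407). With a random replicate block (correlation 0.068) the 4T1 CM interaction of Bcl2a1d was no longer called (-1.06, adjusted p = 0.0116). The block changed no other member's call. Of the other lists' genotype and interaction calls, the compared groups alone lost Cflar, Apaf1, Birc3, Csf2rb2 and Eif4ebp1 (adjusted p = 0.0971, 0.0711, 0.0212, 0.0387 and 0.0314) and the interaction of Csf2rb (0.0196) with 4T1 CM. Thinning lost Bcl2a1a with 4T1 CM (0.016) and Jak2 and Myc with rmGM-CSF (0.0119 and 0.011). Apart from the Casp2 calls given above, no filter lost Eif4ebp1 with 4T1 CM (0.0101). The loss of the Casp2 genotype call with the random replicate block is given above as well.

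Over all genes, higher and lower calls were 122 and 202 for genotype in DMEM, 250 and 358 with the likelihood ratio test and 231 and 309 with DESeq2. The 4T1 CM interaction had 95 and 70, against 194 and 138, 202 and 140, 176 and 126 with the fixed block and 44 and 35 with the compared groups alone. Genotype in 4T1 CM had 537 and 464, and 123 and 157 with the compared groups alone. The rmGM-CSF interaction had 115 and 289, and 179 and 339 with the fixed block. An adjusted p under 0.05 gave 387 and 523, 897 and 1248, and 1086 and 871 for genotype in DMEM, rmGM-CSF (464 and 811) and 4T1 CM, and 217 and 405, and 252 and 171 for the interactions. Without mouse 113 genotype gave 9 and 38, 132 and 414, and 152 and 182. Among the 10 members Pim2 had the lowest counts, 29 to 95 per library.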
